A study of Homo sapiens with 6 samples.

Results

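RNA levels of 44 receptor tyrosine kinase genes were compared between U87 cells depleted of the long noncoding RNA LINC00152 and control cells. The genes were taken from a fixed list of receptor symbols grouped by receptor family, with the VEGF receptors left out, and all 44 were found among the 27192 genes listed in each count table. U87 is an established human glioblastoma cell line. The siLINC00152 group received 2 siRNAs against LINC00152 at once, and the siGL2 group received a control siRNA that the labels call nonspecific. Both groups received 2 rounds of transfection 24 hours apart and were collected 24 hours after the last one. Each group held 3 libraries, called A, B and C, made from polyadenylated RNA with a kit that keeps the strand of the transcript. Because the siRNAs were combined, an effect of either one alone was not measured. Nothing in the labels says that the libraries of a group came from separate cultures, so the p-values below rest on a spread between samples that may be technical only.

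Receptor tyrosine kinases are single-pass membrane proteins that bind a ligand outside the cell and carry a kinase inside it. Binding of a ligand brings receptor chains together, the chains phosphorylate each other on tyrosine, and adaptor proteins that dock on these tyrosines start the RAS-MAP kinase, PI3K-AKT and STAT3 pathways. Sprouty and LRIG proteins, CBL ubiquitin ligases and tyrosine phosphatases turn the signal down. In glioblastoma EGFR, PDGFRA and MET are the receptors best known for gene amplification or mutation, and AXL and EPHA2 are receptors often abundant in cells with a mesenchymal expression program.

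The libraries held 41963120 to 43713662 counts in the siLINC00152 group and 42139419 to 46234763 counts in the siGL2 group, and 14078 genes had enough counts to be tested. LINC00152 itself had 114, 112 and 109 counts in the siLINC00152 libraries, against 650, 608 and 776 counts in the siGL2 libraries, a log2 fold change of −2.51 ± 0.09 (SE, edgeR adjusted p = 4.55e-15). MIR4435-2HG is a close copy of LINC00152: 20.7% of the 75-base stretches of LINC00152 and 23.7% of those of MIR4435-2HG are shared with other genes, mainly with each other. MIR4435-2HG stood at 37.7 ± 1.05 CPM in siLINC00152 cells and 39.0 ± 1.31 CPM in siGL2 cells (CPM, counts scaled by TMM and by library size, SD, n = 3 each, edgeR adjusted p = 0.429). Of 8 astrocyte or glioma markers, 5 were tested. VIM, CD44, NES and SLC1A3 were lower and SOX9 was higher, at 81.0 CPM in siLINC00152 cells against 36.0 CPM in siGL2 cells (edgeR adjusted p = 6.47e-14). Their summed level, nearly all from VIM and CD44, was 9000 to 9307 CPM in siLINC00152 libraries and 11409 to 12034 CPM in siGL2 libraries, and its part in the receptor results was not tested. GFAP had at most 12 counts and AQP4 had 0 counts in all 6 libraries. The antisense genes VIM-AS1 and AL133415.1 cover 24.4% of the exonic bases of the vimentin gene VIM. Summed markers of other cells were 264 to 275 CPM in siLINC00152 libraries against 298 to 307 CPM in siGL2 libraries for neurons. Most of this level came from TUBB3, of which 31.3% of the 75-base stretches are shared with AC092143.1, and TUBB3 did not pass (edgeR adjusted p = 0.119). Of the 3 tested neuron markers only SNAP25 passed, at 42.8 CPM in siLINC00152 cells against 63.7 CPM in siGL2 cells (edgeR adjusted p = 2.26e-09). Summed markers were between 0.939 and 1.27 CPM over all 6 libraries for the oligodendrocyte lineage, led by MBP, and 3.80 to 5.45 CPM in siLINC00152 libraries against 5.14 to 5.74 CPM in siGL2 libraries for epithelial cells, led by KRT8. The library siGL2 A stood apart from its group: chi-square per degree of freedom over all genes was 8.92 and 11.1 against siGL2 B and C, and 2.56 between siGL2 B and C. In bulk RNA, fewer cells that express a gene and less RNA per cell cannot be told apart.

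Of the 44 receptor genes, 30 had enough counts to be tested. In siLINC00152 cells 13 were higher and 11 were lower than in siGL2 cells at an adjusted p under 0.05, and 6 did not pass (edgeR quasi-likelihood test, Benjamini-Hochberg adjustment over all 14078 tested genes). The 24 that passed were 80.0% of the tested receptor genes. Over all tested genes the share was 64.3%, made up of 32.2% higher and 32.2% lower, so most of the transcriptome passed as well. A difference of at least 1.5-fold that also passed was found for 12 receptor genes, or 40.0%, against 20.0% of all tested genes. In 24 of the 30 receptor genes the 3 siLINC00152 libraries did not overlap the 3 siGL2 libraries in CPM, against 67.7% of all tested genes. The median log2 fold change was 0.10 over the tested receptor genes and −0.00 over all tested genes.

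Rises and falls of at least 1.5-fold were equal in number. AXL, PDGFRB, IGF1R, ROR1, ALK and ROS1 rose by that much, and PDGFRA, CSF1R, PTK7, EPHA7, EPHB3 and TEK fell by that much. IGF1R and ROS1 were the receptor genes that differed at least 2-fold. Within several families one member rose while another fell, as with AXL and TYRO3, PDGFRB and PDGFRA, KIT and CSF1R, EPHA3 and EPHA2, and EPHB2 and EPHB3. The calls of TYRO3, KIT and EPHB3 were lost in some alternatives, given with each gene.

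**Figure D1:**
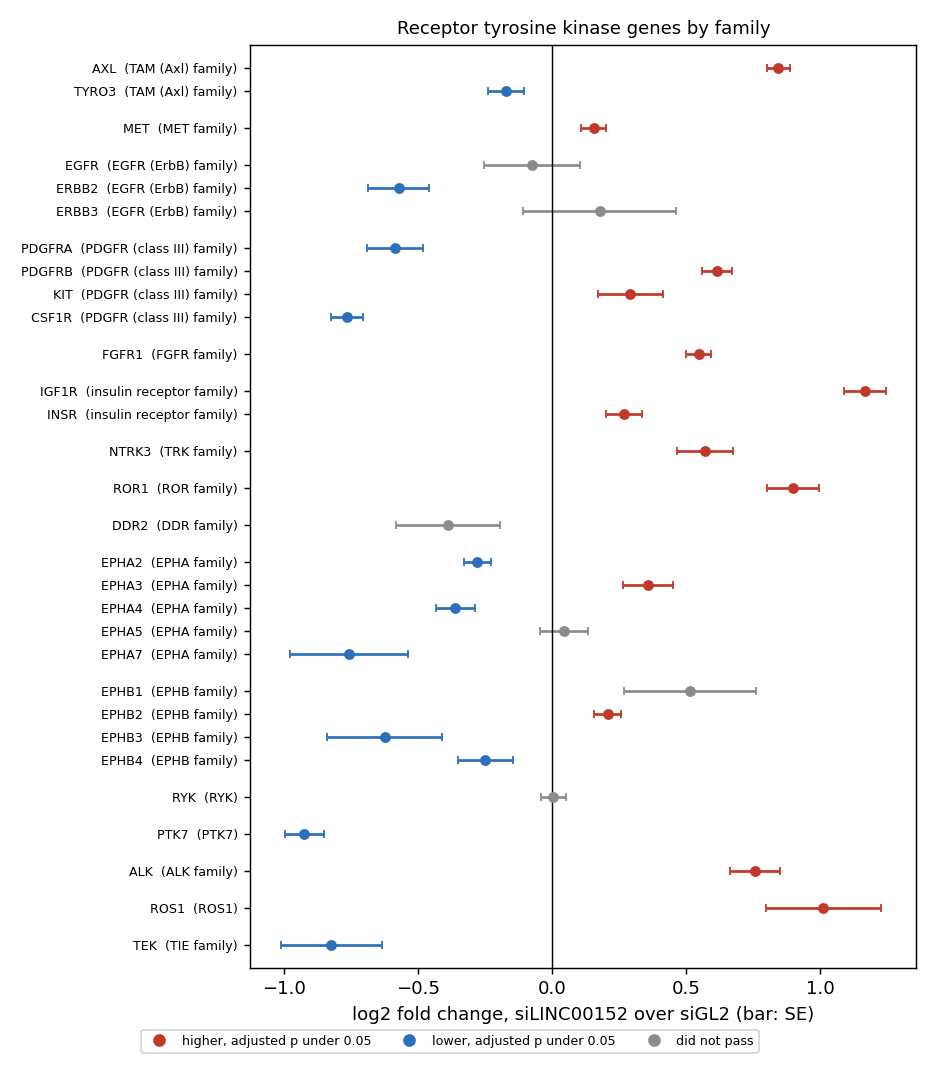
Log2 fold change of each of the 30 tested receptor genes, siLINC00152 over siGL2, grouped by receptor family; points are edgeR estimates, bars are standard errors, and colour gives the result of the test. IGF1R lies farthest to the right at 1.17 and PTK7 farthest to the left at −0.92, and EGFR and DDR2 have long bars for genes of their abundance.

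AXL was the most abundant receptor gene in both groups and rose 1.80-fold in siLINC00152 cells. AXL is a receptor of the TAM family and binds the vitamin K-dependent ligand GAS6. It lies on the plus strand of chromosome 19, chr19:41219203-41261766 (hg38). AXL had 49491, 47988 and 48110 counts in siLINC00152 libraries A, B and C, against 28622, 27366 and 30442 counts in siGL2 libraries A, B and C. All siLINC00152 libraries were far above all siGL2 libraries, at 1159 ± 40.4 CPM against 645.6 ± 13.2 CPM (SD, n = 3 each). The log2 fold change was 0.84 ± 0.04 (SE, edgeR adjusted p = 8.95e-13). The 250 bases before the AXL start in RefSeq (GRCh38.p14) are shown because AXL is the most abundant of the receptor genes and among those that rose. They hold the hexamer GGGCGG, the core of a GC box, at 2 places, which are in capitals.
AXL promoter (chr19:41218973-41219222, plus strand): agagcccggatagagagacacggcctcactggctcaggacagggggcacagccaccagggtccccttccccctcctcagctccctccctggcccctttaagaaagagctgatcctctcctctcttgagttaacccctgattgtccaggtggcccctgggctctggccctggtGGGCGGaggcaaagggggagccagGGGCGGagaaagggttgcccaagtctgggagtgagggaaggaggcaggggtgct

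TYRO3, another TAM receptor, was slightly lower. Its counts were 1900, 1866 and 1641 in siLINC00152 libraries, against 2274, 2103 and 2105 in siGL2 libraries, with a log2 fold change of −0.17 ± 0.07 (SE, edgeR adjusted p = 0.0335). The groups overlapped in CPM, since siLINC00152 A, at 46.3 CPM, lay above siGL2 C, at 44.5 CPM. Without siLINC00152 C the adjusted p was 0.233, and without siGL2 A it was 0.106. MERTK, the TAM receptor known for the uptake of dying cells by phagocytes, had 0, 0 and 3 counts in siLINC00152 libraries and 4, 7 and 4 counts in siGL2 libraries, too few to be tested. Of the TAM ligands, GAS6 had a log2 fold change of 0.08 ± 0.06 (SE, edgeR adjusted p = 0.269), and PROS1, which encodes protein S, had one of −0.12 ± 0.05 (SE, edgeR adjusted p = 0.0274).

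MET, the receptor for hepatocyte growth factor, was the second most abundant receptor gene and was slightly higher in siLINC00152 cells. It had 21972, 24002 and 23180 counts in siLINC00152 libraries, against 22783, 20155 and 23191 counts in siGL2 libraries. Raw counts of the groups overlapped, but after scaling for library size and composition the 3 siLINC00152 libraries, at 535, 571 and 544 CPM, were all above the siGL2 libraries, at 525, 467 and 490 CPM. The log2 fold change of 0.16 ± 0.05 (SE, edgeR adjusted p = 0.00755) was small, and 3 alternatives ended the call. It was 0.09 with library size alone (edgeR adjusted p = 0.109), 0.13 without siLINC00152 B (edgeR adjusted p = 0.0533) and 0.11 without siGL2 B (edgeR adjusted p = 0.0865). HGF, the MET ligand, fell in the same cells, to 65.9 ± 8.81 CPM in siLINC00152 cells against 97.3 ± 4.02 CPM in siGL2 cells (SD, n = 3 each), a log2 fold change of −0.56 ± 0.08 (SE, edgeR adjusted p = 2.53e-05). MST1R, the other MET family receptor, had at most 5 counts in a library.

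No receptor of the ErbB family was higher at the threshold. EGFR had 5099, 4910 and 5327 counts in siLINC00152 libraries, against 7042, 4658 and 5458 counts in siGL2 libraries. The value of siGL2 A lay above all others and the other 5 libraries lay close together, between 107.8 and 125.1 CPM. With all 6 libraries the log2 fold change was −0.07 ± 0.18 (SE, 95% confidence interval −0.55 to 0.40, edgeR adjusted p = 0.748). Without siGL2 A it was 0.13 and passed (edgeR adjusted p = 0.0120), so the direction for EGFR turned on 1 library. ERBB2, the family member with no known ligand of its own, fell. It had 132, 133 and 126 counts in siLINC00152 libraries, against 218, 170 and 232 counts in siGL2 libraries, with no overlap and a log2 fold change of −0.57 ± 0.11 (SE, edgeR adjusted p = 1.78e-04). ERBB3 had 14 to 19 counts in every library of either group and did not pass (log2 fold change 0.18 ± 0.29, SE, edgeR adjusted p = 0.605), and ERBB4 had at most 4 counts.

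In the PDGF receptor family, PDGFRB and PDGFRA moved in opposite directions. PDGFRB had 1868, 1806 and 1929 counts in siLINC00152 libraries, against 1348, 1231 and 1314 counts in siGL2 libraries. The groups were well apart, and PDGFRB rose 1.53-fold (log2 fold change 0.62 ± 0.06, SE, edgeR adjusted p = 4.87e-09). PDGFRA had 132, 152 and 125 counts in siLINC00152 libraries, against 212, 204 and 239 counts in siGL2 libraries. All siLINC00152 libraries were lower, and PDGFRA fell to 66.6% of its siGL2 level (log2 fold change −0.59 ± 0.11, SE, edgeR adjusted p = 5.80e-05), although 14.7% of its 75-base stretches are also annotated to the transcript AC058822.1. PDGFRB marks fibroblasts and pericytes in tissue, and the summed level of the 6 fibroblast and pericyte markers was also higher, at 1375 to 1554 CPM in siLINC00152 libraries against 773 to 853 CPM in siGL2 libraries. Of these markers COL1A1, COL1A2 and ACTA2 rose, LUM fell, RGS5 did not pass and DCN had at most 8 counts in a library. The part of this list in the PDGFRB result was not tested.

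CSF1R, the receptor for CSF1 and IL34 that is best known from macrophages and microglia, fell 1.70-fold. Its counts were 562, 570 and 541 in siLINC00152 libraries, against 994, 957 and 1079 in siGL2 libraries, with groups far apart and a log2 fold change of −0.76 ± 0.06 (SE, edgeR adjusted p = 7.44e-10). The macrophage genes AIF1 and TYROBP had 0 counts in all 6 libraries, PTPRC had at most 4 and CX3CR1 at most 2. CD14 had 15, 19 and 13 counts in siLINC00152 libraries against 4, 9 and 2 counts in siGL2 libraries and was higher, opposite to CSF1R (log2 fold change 1.71 ± 0.43, SE, edgeR adjusted p = 0.00169). The summed level of the 6 macrophage markers was 287 to 313 CPM in siLINC00152 libraries and 331 to 335 CPM in siGL2 libraries, nearly all of it from CD68, of which 73.8% of the 75-base stretches are shared with the transcript AC016876.2. KIT, the stem cell factor receptor, had 118, 141 and 131 counts in siLINC00152 libraries, against 119, 110 and 110 counts in siGL2 libraries. The difference was small (log2 fold change 0.29 ± 0.12, SE, edgeR adjusted p = 0.0417) and was no longer past the threshold in 8 of 13 alternatives, among them library size alone (edgeR adjusted p = 0.112), leaving out siLINC00152 B (0.157), siLINC00152 C (0.0746), siGL2 B (0.0853) or siGL2 C (0.161), and DESeq2 (0.154). FLT3 had a single count in 1 library.

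Some genes of this family are neighbours. PDGFRB (chr5:150113837-150155872) and CSF1R (chr5:150053291-150113372) lie 464 bases apart on the minus strand, and PDGFRB rose while CSF1R fell. PDGFRA (chr4:54229097-54298247) and KIT (chr4:54657918-54740715) lie 359.67 kb apart on the plus strand, and PDGFRA fell, while the small difference of KIT was lost in most alternatives. The RefSeq promoters of both receptors that fell hold the 7-base motif TGANTCA, the consensus bound by AP-1 factors, in capitals below. The PDGFRA stretch runs past the gene start given above, and its motif lies inside the annotated gene. CSF1R also has GGGCGG on the opposite strand, in capitals as CCGCCC.
CSF1R promoter (chr5:150113366-150113615, minus strand): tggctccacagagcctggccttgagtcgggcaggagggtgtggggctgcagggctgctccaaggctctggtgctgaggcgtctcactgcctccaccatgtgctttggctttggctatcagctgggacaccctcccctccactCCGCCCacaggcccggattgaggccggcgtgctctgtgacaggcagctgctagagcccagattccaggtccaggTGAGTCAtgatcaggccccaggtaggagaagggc
PDGFRA promoter (chr4:54229043-54229292, plus strand): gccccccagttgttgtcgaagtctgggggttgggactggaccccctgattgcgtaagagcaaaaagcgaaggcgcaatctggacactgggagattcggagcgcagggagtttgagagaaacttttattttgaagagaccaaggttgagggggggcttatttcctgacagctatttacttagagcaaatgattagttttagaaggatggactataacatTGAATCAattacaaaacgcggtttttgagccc

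The ligands of these receptors also split. PDGFA, the ligand of PDGFRA, rose 3.31-fold, with 1401, 1358 and 1433 counts in siLINC00152 libraries against 417, 457 and 473 counts in siGL2 libraries (log2 fold change 1.73 ± 0.06, SE, edgeR adjusted p = 3.49e-15). It had the smallest p of the ligand list, while its receptor gene fell. PDGFC did not pass (log2 fold change 0.10 ± 0.05, SE, edgeR adjusted p = 0.0780). KITLG, the KIT ligand, rose 1.58-fold, to 55.1 ± 1.55 CPM in siLINC00152 cells against 34.9 ± 1.76 CPM in siGL2 cells (SD, n = 3 each, edgeR adjusted p = 7.07e-10). CSF1 fell 1.58-fold together with its receptor, to 74.2 ± 5.29 CPM in siLINC00152 cells against 117.3 ± 5.27 CPM in siGL2 cells (SD, n = 3 each, edgeR adjusted p = 1.13e-09). IL34, the other CSF1R ligand, moved the opposite way at a very low level, with 19, 20 and 18 counts in siLINC00152 libraries against 2, 6 and 9 counts in siGL2 libraries (log2 fold change 1.81 ± 0.38, SE, edgeR adjusted p = 3.09e-04).

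FGFR1 was the fibroblast growth factor receptor of these cells, and it rose 1.46-fold. It had 11022, 10362 and 10696 counts in siLINC00152 libraries, against 7844, 7590 and 7923 counts in siGL2 libraries, without overlap and with a log2 fold change of 0.55 ± 0.05 (SE, edgeR adjusted p = 2.34e-09). FGFR2, FGFR3 and FGFR4 had between 0 and 4 counts in every library. The ligands with the smallest p in this family fell: FGF5 had 328, 331 and 318 counts in siLINC00152 libraries against 805, 794 and 927 counts in siGL2 libraries (log2 fold change −1.28, edgeR adjusted p = 1.46e-12). FGF2, the basic fibroblast growth factor, fell 1.82-fold (log2 fold change −0.87, edgeR adjusted p = 4.86e-12). NUDT6 covers 11.9% of the exonic bases of FGF2 on the opposite strand, and whether counting used the strand was not stated in what was available here.

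Both receptors of the insulin family rose. IGF1R, the receptor for insulin-like growth factors, had 2010, 1927 and 1949 counts in siLINC00152 libraries, against 1061, 805 and 920 counts in siGL2 libraries. Every siLINC00152 library was far above every siGL2 library, at 46.9 ± 1.81 CPM against 20.8 ± 3.15 CPM (SD, n = 3 each). This 2.25-fold rise was the largest of the tested receptor genes (log2 fold change 1.17 ± 0.08, SE, edgeR adjusted p = 7.64e-10, chr15:98648539-98964530). INSR, the insulin receptor, had 1305, 1272 and 1320 counts in siLINC00152 libraries, against 1227, 1131 and 1078 counts in siGL2 libraries. The libraries did not overlap in CPM, but the step was small (log2 fold change 0.27 ± 0.07, SE, edgeR adjusted p = 0.00135). The ligands IGF1 and IGF2 had at most 3 counts in any library. IRS2, a docking protein of both receptors, rose 1.94-fold (edgeR adjusted p = 9.46e-11), and IGF2R, a scavenger of IGF2 with no kinase, rose 1.70-fold (edgeR adjusted p = 2.47e-09).

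ALK, ROR1 and NTRK3, receptors best known from development and the nervous system, rose, as did ROS1, best known from gene fusions in cancer. ALK had 1131, 1200 and 1279 counts in siLINC00152 libraries, against 886, 680 and 702 counts in siGL2 libraries, a 1.69-fold rise (log2 fold change 0.76 ± 0.09, SE, edgeR adjusted p = 6.94e-06). The highest siGL2 library was A, at 20.4 CPM, which was still below all siLINC00152 libraries, at 27.5 to 30.0 CPM. ROR1, a receptor for WNT5A, had 429, 408 and 385 counts in siLINC00152 libraries, against 236, 189 and 274 counts in siGL2 libraries, and rose 1.87-fold without overlap (log2 fold change 0.90 ± 0.10, SE, edgeR adjusted p = 7.34e-08). ROS1 was rare, with 52, 55 and 45 counts in siLINC00152 libraries against 28, 31 and 21 counts in siGL2 libraries (log2 fold change 1.01 ± 0.22, SE, edgeR adjusted p = 3.49e-04). NTRK3, the neurotrophin-3 receptor, had 185, 185 and 197 counts in siLINC00152 libraries against 133, 122 and 152 counts in siGL2 libraries (log2 fold change 0.57 ± 0.10, SE, edgeR adjusted p = 6.91e-05). All of these genes had separate groups, with between 21 and 1279 counts per library.

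The ligands FAM150A and FAM150B, which activate ALK, had 0 counts in all 6 libraries. PTN, described as another ligand of ALK, had a log2 fold change of −0.16 ± 0.06 (SE, edgeR adjusted p = 0.0162), and MDK, a relative of PTN, fell by 0.59 on the log2 scale (SE 0.12, edgeR adjusted p = 1.84e-04). WNT5A fell by 0.20 on the log2 scale (SE 0.04, edgeR adjusted p = 5.64e-04). NTRK2 had at most 2 counts and ROR2 at most 1 count in a library. RET, the receptor for GDNF, had 7, 0 and 5 counts in siLINC00152 libraries and 7, 6 and 1 counts in siGL2 libraries and was not tested. Its ligand GDNF was well covered and fell 2.04-fold, with 591, 611 and 567 counts in siLINC00152 libraries against 1208, 1288 and 1350 counts in siGL2 libraries (edgeR adjusted p = 7.07e-12), though GDNF-AS1 covers 12.3% of its exonic bases on the other strand. ARTN, another RET ligand, rose 1.75-fold, with 398, 323 and 369 counts in siLINC00152 libraries against 211, 223 and 231 counts in siGL2 libraries (edgeR adjusted p = 2.18e-07). PSPN did not pass (edgeR adjusted p = 0.477). GFRA2, which binds neurturin and presents it to RET, had 50, 36 and 46 counts in siLINC00152 libraries against 6, 6 and 11 counts in siGL2 libraries (log2 fold change 2.59 ± 0.29, SE, edgeR adjusted p = 1.20e-07).

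PTK7 showed the largest fall of the tested receptor genes. PTK7 is a pseudokinase receptor that takes part in planar cell polarity and binds Wnt pathway proteins. It had 359, 316 and 342 counts in siLINC00152 libraries, against 693, 663 and 699 counts in siGL2 libraries. Levels were 8.10 ± 0.613 CPM in siLINC00152 cells and 15.4 ± 0.596 CPM in siGL2 cells (SD, n = 3 each), a 1.90-fold fall with groups far apart (log2 fold change −0.92 ± 0.07, SE, edgeR adjusted p = 7.71e-10). RYK, another Wnt receptor with an inactive kinase, stood level. Its counts were 2296, 2473 and 2434 in siLINC00152 libraries, against 2451, 2464 and 2730 in siGL2 libraries, with a log2 fold change of 0.01 ± 0.05 (SE, 95% confidence interval −0.09 to 0.10, edgeR adjusted p = 0.927). The PTK7 promoter is shown beside that of AXL for comparison of the largest fall with the most abundant riser. It also holds GGGCGG at 2 places, in capitals, and lacks TGANTCA.
PTK7 promoter (chr6:43076064-43076313, plus strand): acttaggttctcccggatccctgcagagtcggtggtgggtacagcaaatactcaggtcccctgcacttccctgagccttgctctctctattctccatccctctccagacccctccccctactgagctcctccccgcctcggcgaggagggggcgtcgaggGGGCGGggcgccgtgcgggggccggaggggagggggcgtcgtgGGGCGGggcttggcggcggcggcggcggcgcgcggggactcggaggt

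TEK, the angiopoietin receptor TIE2 of endothelial cells, was rare and fell. It had 43, 33 and 38 counts in siLINC00152 libraries, against 82, 70 and 63 counts in siGL2 libraries, without overlap (log2 fold change −0.82 ± 0.19, SE, edgeR adjusted p = 6.95e-04). Its ligand ANGPT1 fell as well, with 303, 330 and 345 counts in siLINC00152 libraries against 705, 735 and 804 counts in siGL2 libraries (edgeR adjusted p = 1.84e-11). ANGPT2, another TEK ligand, moved the opposite way at a very low level. It had 8, 16 and 20 counts in siLINC00152 libraries against 11, 4 and 5 counts in siGL2 libraries, with overlapping CPM (log2 fold change 1.21 ± 0.43, SE, edgeR adjusted p = 0.0182). TIE1 had at most 1 count in a library. Endothelial markers were near 0 in both groups: CDH5 had at most 9 counts and CLDN5 at most 2, and PECAM1 stood at 1.01 CPM in siLINC00152 cells against 1.86 CPM in siGL2 cells. VWF went the other way, with 31, 30 and 30 counts in siLINC00152 libraries against 17, 9 and 19 counts in siGL2 libraries (log2 fold change 1.10 ± 0.27, SE, edgeR adjusted p = 0.00123). The summed level of the 5 endothelial markers was 1.86 to 2.05 CPM in siLINC00152 libraries and 1.99 to 2.73 CPM in siGL2 libraries, and its part in the TEK result was not tested.

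The Eph receptors, which bind membrane-anchored ephrins on neighbouring cells, were the largest group and split by member. Of 11 Eph genes listed, 9 were tested, and 2 rose, 5 fell and 2 did not pass. That is 80% of the tested EphA genes and 75% of the tested EphB genes past the threshold, against 64.3% of all tested genes, and EPHB3 and EPHB4 lost the call in several alternatives. EPHA2, the most abundant one per length, had 1981, 2014 and 2050 counts in siLINC00152 libraries, against 2690, 2446 and 2669 counts in siGL2 libraries. All siLINC00152 libraries were lower (log2 fold change −0.28 ± 0.05, SE, edgeR adjusted p = 6.15e-05). EPHA4 had 456, 508 and 583 counts in siLINC00152 libraries against 716, 674 and 723 counts in siGL2 libraries (log2 fold change −0.36 ± 0.07, SE, edgeR adjusted p = 2.65e-04). EPHA7 had 24 counts in each siLINC00152 library, against 49, 34 and 47 counts in siGL2 libraries (log2 fold change −0.76 ± 0.22, SE, edgeR adjusted p = 0.00492). Neither gene overlapped between groups. EPHA3 went the other way, with 235, 217 and 227 counts in siLINC00152 libraries against 183, 179 and 203 counts in siGL2 libraries (log2 fold change 0.36 ± 0.09, SE, edgeR adjusted p = 0.00226). EPHA5 had 246, 283 and 281 counts in siLINC00152 libraries and 291, 246 and 300 counts in siGL2 libraries, with a log2 fold change of 0.04 ± 0.09 (SE, 95% confidence interval −0.14 to 0.23, edgeR adjusted p = 0.690). EPHA1 had 0 counts in all 6 libraries, which allows up to 0.0634 to 0.0730 CPM per library (3 counts, counting error only).

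Among the EphB receptors, EPHB2 was slightly higher. It had 3385, 3358 and 3118 counts in siLINC00152 libraries, against 2938, 2976 and 3188 counts in siGL2 libraries, and in CPM the groups did not overlap (log2 fold change 0.21 ± 0.05, SE, edgeR adjusted p = 0.00116). EPHB3 had 38, 24 and 44 counts in siLINC00152 libraries, against 59, 64 and 51 counts in siGL2 libraries (log2 fold change −0.62 ± 0.21, SE, edgeR adjusted p = 0.0151). The low siLINC00152 B library mattered here: without it the log2 fold change was −0.41 (edgeR adjusted p = 0.112). The call was also lost without siGL2 B (edgeR adjusted p = 0.0671) and with DESeq2 (adjusted p = 0.0586). EPHB4 had 229, 213 and 207 counts in siLINC00152 libraries against 303, 265 and 252 counts in siGL2 libraries, with overlapping CPM, and its adjusted p of 0.0417 (edgeR, log2 fold change −0.25 ± 0.10, SE) lay between 0.0750 and 0.227 in the 5 alternatives that ended the call (DESeq2 among them), the highest without siGL2 A. EPHB1 had 24, 26 and 28 counts in siLINC00152 libraries against 22, 18 and 18 counts in siGL2 libraries; the groups did not overlap, but the test was not passed (log2 fold change 0.51 ± 0.25, SE, edgeR adjusted p = 0.0736). EPHB6 had at most 2 counts. EFNB2, an ephrin ligand of this family, had a log2 fold change of −0.01 ± 0.05 (SE, edgeR adjusted p = 0.838), with 26.2% of its exonic bases covered by AL138689.2 on the opposite strand. Other ephrins were higher: EFNA3 rose 1.67-fold (edgeR adjusted p = 4.39e-06), EFNA4 1.36-fold (edgeR adjusted p = 0.00741) and EFNB1 1.18-fold (edgeR adjusted p = 0.0223). EFNA5 did not pass (edgeR adjusted p = 0.0674).

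The discoidin domain receptors bind collagen rather than a soluble factor. DDR2 had 1915, 1989 and 1920 counts in siLINC00152 libraries, against 3381, 2174 and 2544 counts in siGL2 libraries. All siLINC00152 libraries were below all siGL2 libraries, but siGL2 A, at 77.9 CPM, was far above siGL2 B and C, at 50.3 and 53.8 CPM. With this spread the log2 fold change of −0.39 ± 0.19 (SE) did not pass (edgeR adjusted p = 0.145). Without siGL2 A it was −0.17 and passed (edgeR adjusted p = 0.00360). The library siGL2 A was also the highest of its group for EGFR, IGF1R and ALK, and it was the one farthest from its group's median in 11 of the 30 tested receptor genes, as were siLINC00152 A and siLINC00152 C. DDR1, the epithelial discoidin receptor, had 11, 10 and 11 counts in siLINC00152 libraries and 4, 2 and 3 counts in siGL2 libraries, which left it below the filter on low counts. Its groups did not overlap, and it had the highest total of the untested members, 41 counts over 6 libraries.

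**Figure D2:**
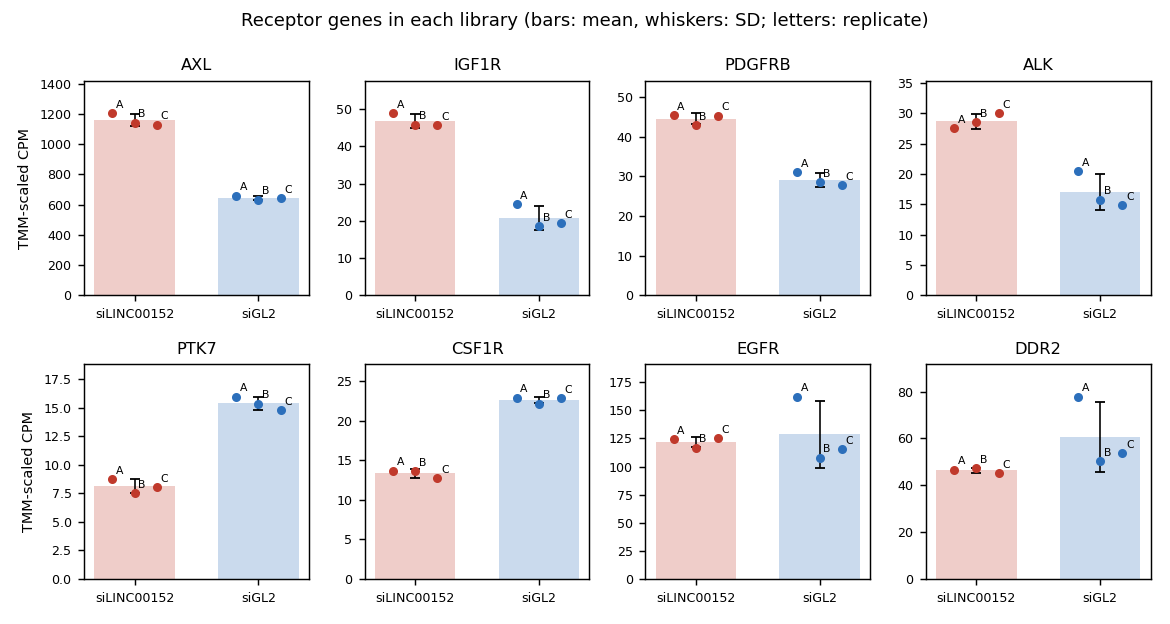
TMM-scaled CPM of 8 receptor genes in each library, siLINC00152 to the left of siGL2, with bars at the mean, whiskers of 1 SD (n = 3) and letters for the replicates; each vertical axis starts at 0. AXL, IGF1R, PDGFRB and ALK are higher in every siLINC00152 library, PTK7 and CSF1R are lower in every one, and for EGFR and DDR2 the library siGL2 A lies above the other 2 siGL2 libraries.

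Per length of exon, the receptor RNA of both groups was dominated by a few genes, here with all annotated exon bases of a gene as its length. In siLINC00152 cells AXL stood at 225 CPM per kb, MET at 78.2, FGFR1 at 18.4, EPHA2 at 11.6, EGFR at 9.75 and RYK at 7.12 CPM per kb. In siGL2 cells AXL stood at 125 CPM per kb, MET at 70.2, EPHA2 at 14.0, FGFR1 at 12.6, EGFR at 10.3 and RYK at 7.09 CPM per kb. Libraries of neighbours among these 6 genes did not overlap in siLINC00152 cells, while in siGL2 cells those of FGFR1 and EGFR did. With these lengths FGFR1 stood above EPHA2 in siLINC00152 cells and below it in siGL2 cells. With the length of the longest transcript instead, FGFR1 stood above EPHA2 in both, at 41.1 against 12.1 CPM per kb in siLINC00152 cells and 28.1 against 14.7 CPM per kb in siGL2 cells, so this order depends on the length used, while AXL and MET kept ranks 1 and 2. Lower in the order, IGF1R ranked 12 in siLINC00152 cells and 16 in siGL2 cells, and CSF1R ranked 14 in siLINC00152 cells and 10 in siGL2 cells. In siGL2 cells the levels of TYRO3, CSF1R and PDGFRB overlapped from each to the next, as did those of INSR, ALK and EPHA4.

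Summed over the receptor genes, the level per length was 384 to 401 CPM per kb in siLINC00152 libraries and 269 to 294 CPM per kb in siGL2 libraries. AXL took 56.7% to 58.4% of that sum in siLINC00152 libraries, against 43.5% to 45.7% in siGL2 libraries. MET took 19.0% to 20.8% in siLINC00152 libraries, against 24.6% to 25.4% in siGL2 libraries, although its own level was slightly higher. As a share of all counts in a library, receptor genes took 0.248% to 0.259% in siLINC00152 libraries and 0.189% to 0.209% in siGL2 libraries. AXL made up 44.2% to 45.5% of the receptor counts in siLINC00152 libraries, against 32.2% to 34.3% in siGL2 libraries. Most of the gap between groups in summed receptor RNA thus came from AXL alone.

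**Figure D3:**
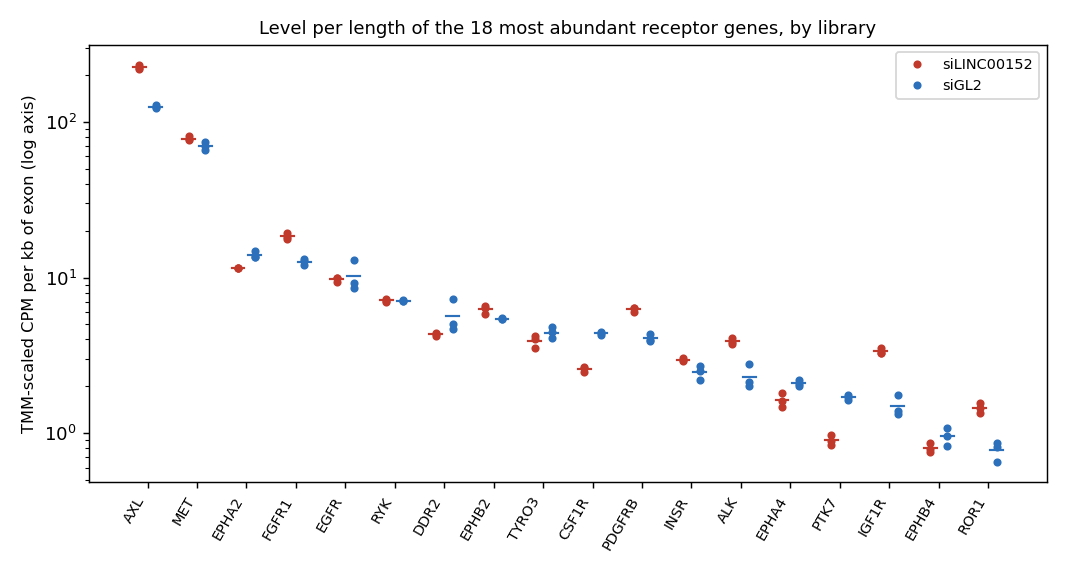
TMM-scaled CPM per kb of exon (log axis) of the 18 most abundant receptor genes, ordered by level; points are libraries, siLINC00152 to the left of siGL2, and short lines are means of 3. AXL and MET stand above all others in both groups, and AXL at 225 in siLINC00152 cells against 125 CPM per kb in siGL2 cells has the widest gap in absolute level.

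The 14 untested members were MERTK, MST1R, ERBB4, FLT3, FGFR2, FGFR3, FGFR4, NTRK2, ROR2, DDR1, EPHA1, EPHB6, RET and TIE1. None had more than 11 counts in a library, and 3 of them had 0 counts in all siLINC00152 libraries. They were left out of the test for low counts, so their counts are given only as a description.

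Genes that act with the receptors were described from 4 lists. Of 65 ligands listed, 42 were tested, of which 11 rose, 19 fell and 12 missed the threshold; their median log2 fold change was −0.11. The share past the threshold, 71.4%, stood beside 64.3% of all tested genes. The 6 with the smallest p were PDGFA, FGF5, FGF2, GDNF, ANGPT1 and KITLG, described above. The EGFR ligands differed among themselves: TGFA rose 1.37-fold, to 362.8 ± 13.7 CPM in siLINC00152 cells against 263.9 ± 4.34 CPM in siGL2 cells (SD, n = 3 each, edgeR adjusted p = 1.13e-08). HBEGF fell by 0.50 on the log2 scale (edgeR adjusted p = 6.80e-08) and EREG by 0.33 (edgeR adjusted p = 1.10e-04), and NRG1, a ligand of ERBB3 and ERBB4, fell by 0.31 (edgeR adjusted p = 7.79e-05). AREG had at most 1 count in a library.

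Of 43 adaptors and transducers, 42 were tested, of which 18 rose, 13 fell and 11 missed the threshold; their median log2 fold change was 0.05. That is 73.8% past the threshold beside 64.3% of all tested genes, and 19.0% past it with at least 1.5-fold beside 20.0%. With library size alone in place of TMM the split of this list became 13 higher and 15 lower. PIK3R3, a regulatory subunit of PI3K, rose 2.82-fold, with 2062, 2119 and 2197 counts in siLINC00152 libraries against 750, 865 and 791 counts in siGL2 libraries (edgeR adjusted p = 3.23e-14), although 16.3% of its 75-base stretches are shared with AL358075.4. STAT3 rose 1.59-fold (edgeR adjusted p = 2.15e-10) and FRS2, the docking protein of FGF receptors, rose by 0.68 on the log2 scale (edgeR adjusted p = 4.97e-10). FYN, a SRC family kinase, fell 1.56-fold (edgeR adjusted p = 1.14e-10), and SHC3, a neuronal SHC adaptor, fell 1.66-fold (edgeR adjusted p = 7.60e-10).

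Of 43 negative regulators listed, 41 were tested, of which 21 rose, 9 fell and 11 missed the threshold; their median log2 fold change was 0.24, against −0.00 over all tested genes. A share of 73.2% passed, beside 64.3% of all tested genes, which split evenly into 32.2% higher and 32.2% lower. ERRFI1, also called MIG6, which binds and inhibits the EGFR kinase, rose 3.12-fold. It had 54238, 56311 and 58635 counts in siLINC00152 libraries, against 19235, 17839 and 20759 counts in siGL2 libraries, with a wide gap between groups (log2 fold change 1.64, edgeR adjusted p = 5.71e-17). DUSP5, a phosphatase of ERK, rose 2.75-fold (edgeR adjusted p = 3.76e-15). CBLB, a ubiquitin ligase of activated receptors, rose 1.98-fold (edgeR adjusted p = 1.34e-12). The receptor phosphatase PTPRF rose 2.11-fold (edgeR adjusted p = 4.78e-11). The Sprouty genes split: SPRY1 rose 1.78-fold (edgeR adjusted p = 4.85e-05) and SPRY2 1.69-fold (edgeR adjusted p = 2.01e-11), while SPRY4 fell 3.01-fold. SPRY4 had 823, 990 and 945 counts in siLINC00152 libraries against 3007, 2917 and 2896 counts in siGL2 libraries (edgeR adjusted p = 1.53e-14). SPRY3 had at most 5 counts in a library and was not tested.

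Of 26 co-receptors and shedding proteases, 19 were tested, of which 12 rose, 4 fell and 3 missed the threshold; their median log2 fold change was 0.36. Those past the threshold made up 84.2%, beside 64.3% of all tested genes. ADAM17, a protease that releases several EGFR ligands from the cell surface, rose 2.40-fold. It had 5134, 5272 and 5691 counts in siLINC00152 libraries, against 2376, 2218 and 2558 counts in siGL2 libraries (edgeR adjusted p = 1.06e-14), and 13.6% of its exonic bases are covered by genes on the opposite strand. ADAM12 rose 2.43-fold (edgeR adjusted p = 2.03e-14) and GPC1, a heparan sulfate co-receptor of FGF2, 1.52-fold (edgeR adjusted p = 3.09e-09). The syndecan SDC1 fell 1.81-fold (edgeR adjusted p = 9.47e-12) and NRP1, a co-receptor of several growth factors, fell 1.51-fold (edgeR adjusted p = 1.13e-09).

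**Figure D4:**
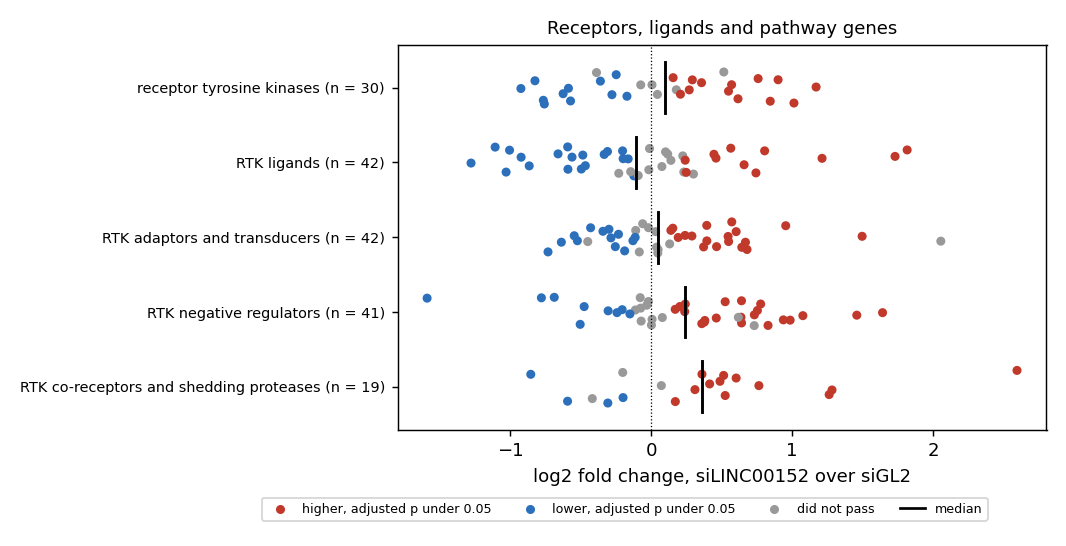
Log2 fold changes, siLINC00152 over siGL2, of the tested genes of each list, with a black line at the median of each list and colour for the result of the test; vertical position within a row is spread at random so that points can be seen. Medians run from −0.11 for the ligands to 0.36 for the co-receptors and shedding proteases, and the receptors, at 0.10, spread to both sides.

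Promoter sequences were compared with these changes as a description. RefSeq (GRCh38.p14) gave a promoter for 42 of the 44 receptor genes, taken as the 250 bases before the start, and 3 short motifs were searched on both strands. Where RefSeq gave several for a receptor, only the one nearest the start of the main coding GENCODE transcript was used. The shares over all promoters count every promoter listed, so they are not like for like with those of the receptors. GGGCGG was found in 9 of 12 receptors that were higher, 8 of 11 that were lower, 4 of 5 that did not pass and 11 of 14 untested. Its share was thus much alike in receptors called and not called. Over all 35116 promoters it was 42.6%. TGANTCA was found in 0 of the 12 that were higher, 0 of the 5 that did not pass, 0 of the 14 untested and 6.57% of all promoters. It was found in 4 of the 11 that were lower (TYRO3, ERBB2, PDGFRA and CSF1R). The ERBB2 promoter in RefSeq lies 11986 bases from the start of the main coding GENCODE transcript of ERBB2, while those of the other 3 lie within 196 bases of theirs. GGAATG, the core bound by TEAD factors, was found in 0 of the 12 that were higher and 1 of the 11 that were lower (EPHA2). It was found in 0 of the 5 that did not pass, 1 of the 14 untested (DDR1) and 11.9% of all promoters. GGAATG can share letters with TGANTCA, but no receptor promoter held both. A match shows only that these letters are present, and binding was not measured.

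The 3′ UTRs of the tested receptors were searched for 4 words of 7 bases, namely GTGTGTC with its overlapping neighbour TGTGTCA, and TGAAAGA with its overlapping neighbour CTGAAAG, which had been picked in earlier work on these libraries from the same fold changes and so support nothing here. At least 1 word was present in 5 of 11 receptors that were lower, with a median 3′ UTR of 896 bases, and in 9 of 13 that were higher, with a median of 2158 bases. Over 12123 tested genes with a 3′ UTR the share was 38.3%. Of the receptors that fell by 1.5-fold or more, PTK7, CSF1R, PDGFRA and EPHB3 hold none of the words, EPHA7 holds 2 and TEK holds 1. EPHA4, which fell, holds 4 copies of GTGTGTC, the most of that word in a tested receptor, and 1 site is shown with the word in capitals (GRCh38).
EPHA4 3′ UTR (chr2:221420189-221420217, minus strand): atttcattcctGTGTGTCactgctgcatt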

How the data were processed

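Polyadenylated RNA of U87 cells gave 6 libraries, 3 per group, read from both ends at 75 bases (per the labels' protocols). For every library the authors deposited raw counts for each gene symbol as whole numbers. Per the submitters' processing notes, bcl2fastq, HISAT, HTSeq, DESeq and the build hg38 were used, with no version stated. The annotation, the strand setting and the handling of reads with several matches were not stated in what was available here. Shared sequence of at least 10% is therefore given beside the named genes for which it was measured.

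From these counts, genes were selected with filterByExpr at its minimum count of 10 and total of 15, scaled by TMM (factors 0.975 to 0.979 in siLINC00152 and 1.02 to 1.03 in siGL2 libraries) and tested two-sided with edgeR 4.0.16 (robust quasi-likelihood test, R 4.3.3, limma 3.58.1) on all 6 libraries with no covariate, adjusted by the Benjamini-Hochberg method over 14078 genes. DESeq2 1.42.0 was an alternative. CPM values are TMM-scaled, and SE is the standard error of the log2 fold change, with a median of 0.06 over all genes and 0.09 over receptor genes. The biological coefficient of variation was 4.47%. Where a gene had 0 counts, its true level could reach 3 counts, which is 0.0704 to 0.0730 CPM in siLINC00152 and 0.0634 to 0.0694 CPM in siGL2 libraries, which covers counting error only. No pair of replicates agreed within sampling noise (chi-square per degree of freedom of at least 2.56). In a simulation of this comparison over 13994 genes, recovery was 52% at 1.25-fold, 92% at 1.5-fold, 98% at 2-fold and 100% at 4-fold (50 genes each). In it 7 of 13794 unchanged genes were called. The simulation changed far fewer genes than passed in the data, and no simulated library stood apart as siGL2 A did. Its rates may therefore not hold for the data.

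Levels per length divide CPM by the exon bases of GENCODE release 29, which also gave coordinates and 3′ UTRs. Promoters came from RefSeq. Python 3.11.15, numpy 2.4.6, pandas 2.3.3 and matplotlib 3.10.9 were used. The receptor genes, the 4 lists and the motifs were chosen with earlier results of these data known. Named genes were all 44 receptors, LINC00152, MIR4435-2HG, the 6 genes with the smallest p of each list and, per cell type, the marker with the highest level, and other ligands, markers and list genes were named after their values were seen. Some list genes and 1 sequence are not reported here.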

Additional observations from a re-analysis of the deposited data

How the results depend on the processing

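Under 13 alternatives (scaling by library size or RLE, 2 other filters on low counts, a fit without robust estimation, DESeq2, a replicate block and leaving out each library), 11 to 15 receptor genes were higher and 9 to 12 lower, and 12 to 15 were higher and 9 to 11 lower when a library was left out. Of the 24 receptor genes past the threshold, 18 were called the same way in all 13. TYRO3, MET, KIT, EPHB3 and EPHB4 lost the call in at least 1, and EPHA7 was not tested at a minimum of 1 CPM in 3 libraries. EGFR ranged from −0.19 to 0.13 when a library was left out, and the one change of sign came without siGL2 A, at 0.13 (edgeR adjusted p = 0.0120), and DDR2 passed in 4 alternatives, among them the fit without robust estimation (edgeR adjusted p = 0.00441). The cause was not tested. LINC00152 stood between −2.57 and −2.45. With library size alone, 3755 genes were higher and 5389 lower, the median log2 fold change moved to −0.07, and receptors split 11 higher and 11 lower. With the longest transcript in place of all exons, 48 levels per length moved by more than 1 SD, over the 30 tested receptors in each of 2 groups. These moves could only be upward, since the longest transcript is never longer than all exons.

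Nothing in the labels says that equal letters mark a shared culture, so the letters were not taken as pairs. Deviations of same-letter libraries correlated at 0.13, −0.04 and 0.13, and those of different-letter libraries at −0.18 to 0.07. The A and C pairs thus correlated more than any different-letter pair, and whether letters mark a shared culture or day was not tested. With a replicate block, 12 receptor genes were higher and 12 lower: KIT missed the threshold (edgeR adjusted p = 0.0512) and DDR2 passed at −0.37 (edgeR adjusted p = 0.0156).

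The rarest tested receptors (ERBB3, EPHA7, EPHB1, EPHB3, ROS1 and TEK) have standard errors of 0.19 to 0.29 on the log2 scale. The other 14 were left out by the filter on low counts. Without that filter 13 receptors were higher and 12 lower, DDR1 (1.88, edgeR adjusted p = 0.00186) and MERTK (−2.10, edgeR adjusted p = 0.0387) among them and KIT not.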

Other observations

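Some other inhibitors of receptor signalling, named after their values were seen, also rose. They come from the list of negative regulators, of which 21 of 41 tested rose, 9 fell and 11 missed the threshold. All 3 LRIG genes were higher in siLINC00152 cells, among them LRIG1, known to lower the amount of ErbB receptors on the cell. LRIG1 had 4703, 4398 and 4574 counts in siLINC00152 libraries against 3155, 3012 and 3175 counts in siGL2 libraries (log2 fold change 0.64, edgeR adjusted p = 5.29e-10), LRIG2 rose by 0.78 (edgeR adjusted p = 8.99e-10) and LRIG3 by 0.52 (edgeR adjusted p = 8.33e-06). NEDD4, a ubiquitin ligase, rose 1.66-fold, to 331.7 ± 6.70 CPM in siLINC00152 cells against 199.8 ± 13.6 CPM in siGL2 cells (SD, n = 3 each, edgeR adjusted p = 5.43e-11). DUSP6, an ERK phosphatase like DUSP5, fell 1.39-fold (edgeR adjusted p = 2.99e-07), and so moved opposite to DUSP5.

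AKT1 and AKT2, which encode kinases downstream of PI3K, differed in direction. AKT2 rose 1.31-fold (edgeR adjusted p = 5.36e-07) and AKT1 fell 1.23-fold (edgeR adjusted p = 5.48e-06).

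PTPRK, which encodes a receptor phosphatase, had 316, 453 and 61 counts in siLINC00152 libraries and 201, 292 and 36 counts in siGL2 libraries, with both C libraries low. The standard error of its log2 fold change was 0.99, against at most 0.29 for a tested receptor. It missed the threshold (edgeR adjusted p = 0.567), and the cause was not tested.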
